A study of Sorghum bicolor with 12 samples.

Results

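The most abundant root transcripts of sorghum (Sorghum bicolor) that moved little with drought were examined in RNA sequencing data of root tissue from mature plants. Read counts were scaled to CPM, the count of an identifier divided by the total of its library and multiplied by 1000000. Identifiers whose mean log2(CPM + 0.5) in drought differed from that in water by 0.5 or more in either line were set aside. Of the 18060 that were left, the 100 with the highest mean CPM over 12 libraries were kept, out of 20818 identifiers in all. These 100 are called the members below. Members were thus selected on the measured drought difference and mean level, and both are given as description, with no test.

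The series compared 2 near-isogenic lines from a BC2F3 family that had been mutagenized with EMS, a chemical that causes base changes. NIL-bri1-72 carries a SNP that alters the outer, ligand-facing region of SbBRI1, the sorghum brassinosteroid receptor, and NIL-WT-72 is without it. The submitters assumed that the lines are near-isogenic, and each genotype is represented by 1 line. Each line was watered or held at 30% of field capacity, with 3 biological replicates per line and regime. Every group therefore shares the mutagenized background, and a difference between the lines cannot be told apart from other segments that differ between them.

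Brassinosteroids are steroid hormones of plants that promote cell elongation and division, and BRI1 is the receptor kinase at the cell surface that binds them. Its signal ends at transcription factors of the BES1 family, and the stated purpose of the series was to find early targets of SbBES1 in drought. In any plant tissue a small set of genes supplies a large part of all messenger RNA. Because sequencing measures shares, a change in such genes alters the apparent level of all others. In roots, genes for protein synthesis, primary metabolism and the cell wall are known to be among the abundant ones. Which of these the members belong to is not stated here. The deposited table gives identifiers only, and 0 of the 100 members matched the 32945 genes of the RefSeq table used here. The root label could not be checked against marker genes for the same reason.

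Library totals ranged from 18640601 to 33296273 counts. Root-mean-square deviations from the group means, over all identifiers, were largest in NIL-WT-72 water replicate 1, at 0.365 log2 units, and between 0.166 and 0.308 in the other libraries. Over the members they were largest in NIL-bri1-72 drought replicates 1 and 2, at 0.261 and 0.232, and 0.167 in NIL-WT-72 water replicate 1.

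The members held 12.01%, 11.9% and 11.3% of all counts in NIL-WT-72 in water and 13.1%, 12.2% and 11.9% in NIL-WT-72 in drought. In NIL-bri1-72 they held 11.7%, 12.6% and 12.1% in water and 11.5%, 12.8% and 12.4% in drought. In every library between 11.3% and 13.1% of the counted reads thus came from 0.480% of the identifiers, and all 4 groups overlapped. In bulk tissue a lower level through fewer cells of a type and one through less RNA per cell cannot be told apart. The 10 most abundant members alone held between 2.70% and 3.19%. The next 100 identifiers by the same rule held between 5.20% and 5.66%.

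Mean levels of the members spanned from 4300 down to 692 CPM, with a median of 966 CPM, while the median over all 20818 identifiers was 18.0 CPM. Above 2000 CPM there were 11 members, and 57 lay under 1000 CPM. The counts behind these values were between 7776 and 171215 per member and library, so counting error was at most 1.13%, or 0.0164 log2 units, and nearly all of the spread between libraries lies beyond it. Transcript lengths were not used here, so an order by CPM is an order of reads and not of molecules.

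Sobic.008G178800 on chromosome 8 took the most reads. It stood at 4408, 4282 and 3443 CPM in watered and 5208, 4583 and 4142 CPM in droughted NIL-WT-72. In NIL-bri1-72 it stood at 3676, 3967 and 4033 CPM in water and 3794, 5551 and 4507 CPM in drought. It was the highest identifier in 8 of 12 libraries, and its groups overlapped in both lines.

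The second, Sobic.008G185900, is numbered on chromosome 8 as well. Its level was 3376, 3954 and 4060 CPM in watered NIL-WT-72 and 3757, 3441 and 3898 CPM in droughted NIL-WT-72. The values for NIL-bri1-72 were 4153, 3829 and 3895 CPM in water and 3737, 2521 and 3757 CPM in drought. Its regimes overlapped in NIL-WT-72, while in NIL-bri1-72 every watered library lay above the droughted ones. NIL-bri1-72 drought replicate 2 was the lowest library for this identifier and the highest for Sobic.008G178800.

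Sobic.005G107900 on chromosome 5 was more uneven, with 2508, 2178 and 3620 CPM in watered and 3847, 4116 and 2862 CPM in droughted NIL-WT-72. NIL-bri1-72 had 4034, 4170 and 2722 CPM in water and 4260, 3559 and 4158 CPM in drought. Replicate 3 of NIL-WT-72 thus ran against the other replicates in both regimes, high in water and low in drought. Sobic.008G185900 and Sobic.005G107900 each led 2 of the 4 libraries that Sobic.008G178800 did not.

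Sobic.003G305700 on chromosome 3 followed with 3079, 3234 and 2850 CPM in watered and 4286, 3295 and 3420 CPM in droughted NIL-WT-72. NIL-bri1-72 had 2992, 3677 and 3268 CPM in water and 2817, 3627 and 4073 CPM in drought. All droughted NIL-WT-72 libraries lay above the watered ones, while the regimes overlapped in NIL-bri1-72. Next came Sobic.001G107100 on chromosome 1 with a mean of 2625 CPM.

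Sobic.004G220300 on chromosome 4 stood at 2173, 1899 and 2258 CPM in watered and 2879, 2921 and 2571 CPM in droughted NIL-WT-72, again with no overlap of the regimes. The NIL-bri1-72 libraries overlapped, at 3033, 2602 and 2212 CPM in water and 2486, 1952 and 2817 CPM in drought. Since the drought difference entered the rule, no test of these patterns was made.

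Sobic.005G228700 on chromosome 5 and Sobic.010G072300 on chromosome 10 leaned the other way in drought. Sobic.005G228700 stood at 2279, 2560 and 2894 CPM in watered and 1805, 2135 and 2387 CPM in droughted NIL-WT-72. In NIL-bri1-72 it stood at 2517, 2136 and 2516 CPM in water and 2644, 1557 and 1637 CPM in drought. The regimes overlapped in both lines, with NIL-bri1-72 drought replicate 1 above every watered library of that line.

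Sobic.010G072300 had 1582, 2270 and 2378 CPM in watered and 1247, 1758 and 1738 CPM in droughted NIL-WT-72, and 2273, 2158 and 2033 CPM in watered and 2057, 1459 and 1421 CPM in droughted NIL-bri1-72. Here too NIL-bri1-72 drought replicate 1 lay with the watered libraries. Sobic.009G143700, the 20th member by level, was much more even, between 1286 and 1591 CPM in all libraries. From the 6th place to the 20th, means ran from 2484 to 1460 CPM in small steps. Most of these steps were smaller than the replicate SDs of the members on either side. An exception lay between Sobic.009G033600 at 2222 CPM and Sobic.001G344500 at 1999.9 CPM, whose replicate SDs were 0.107 and 0.147 log2 units.

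Within single libraries, between 84 and 93 members were among the 100 highest identifiers, and 61 members were so in every library.

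**Figure D1:**
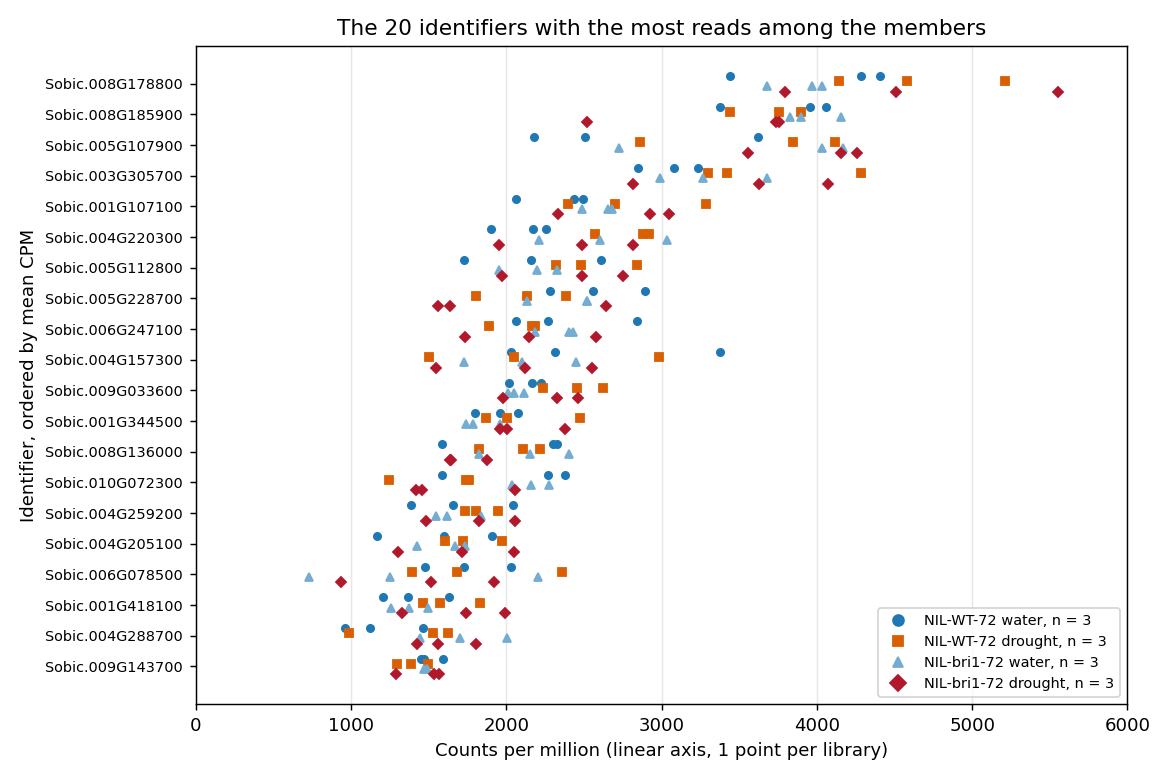
Level in CPM (reads relative to the library total) of the 20 members with the most reads, 1 point per library, with identifiers ordered by mean CPM and symbols for the 4 groups of 3 libraries. Sobic.008G178800 reaches 5551 CPM in 1 droughted NIL-bri1-72 library, and for Sobic.003G305700 and Sobic.004G220300 all droughted NIL-WT-72 points lie above the watered ones.

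The drought differences that chose the members lay within 0.5 log2 units by construction. Of all identifiers, 13.2% were set aside by that bound, and 5 of the 105 most abundant were. The median difference of the members, drought minus water, was 0.11 (NIL-WT-72) and 0.03 (NIL-bri1-72), against 0.01 and -0.02 for all identifiers. In both lines the difference stayed within 0.25 for 72 members, and 28 reached 0.25 or more in at least 1 line.

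The members nearest to the bound were Sobic.009G234800, at -0.32 for NIL-WT-72 and -0.49 for NIL-bri1-72, and Sobic.001G125900, at -0.37 and -0.49. Just outside it lay Sobic.005G050200, at 0.19 and -0.54, and Sobic.003G397300, at 0.56 and 0.09. At the lower end of the levels, Sobic.006G030100 and Sobic.004G162000 were the last members with 702 and 692 CPM, and Sobic.006G135600 and Sobic.009G085100 were the first left out with 690 and 680 CPM. The limits thus separate values that differ by less than the replicates do.

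Staying within the bound is not a test of stability. For 52 of 100 members the SD between replicates was larger than the member's drought difference in either line. The other 3 abundant identifiers set aside were Sobic.007G047300, at 0.59 for NIL-WT-72 and 0.24 for NIL-bri1-72, Sobic.001G351500, at 0.73 and 0.17, and Sobic.005G046700, at -1.17 and -1.28. Sobic.005G046700 was the only 1 of the 5 that passed the bound in both lines.

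**Figure D2:**
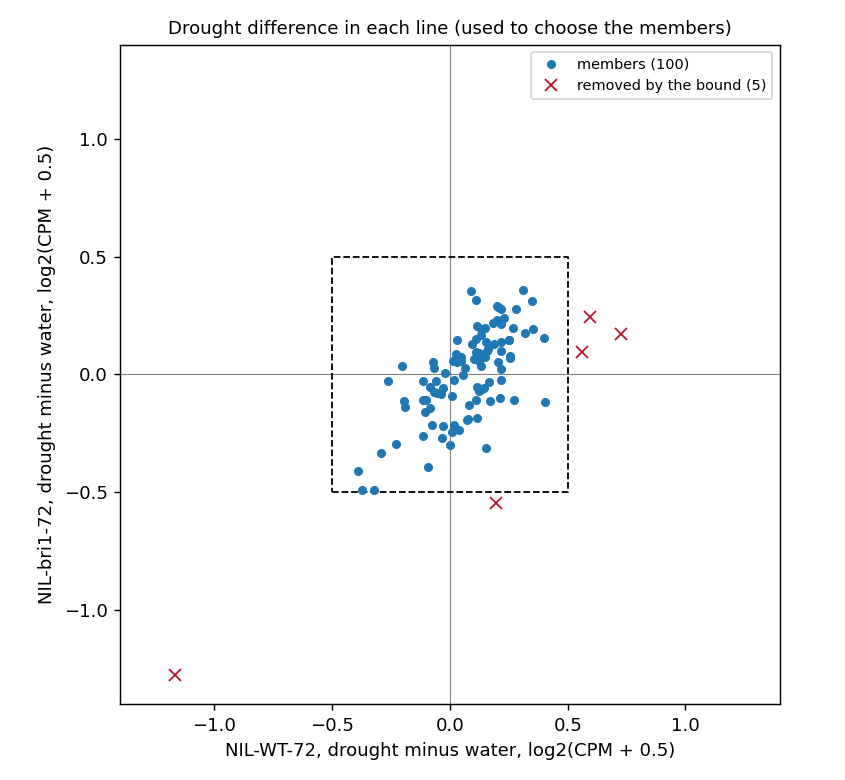
Mean drought minus water difference in log2(CPM + 0.5) for NIL-WT-72 (x axis) and NIL-bri1-72 (y axis), with the members as dots, the 5 abundant identifiers set aside as crosses and the bound of 0.5 as a dashed square. The members lie inside the square by construction, and Sobic.005G046700 lies far below it at -1.17 and -1.28.

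The spread between replicates was not part of the rule. It was taken as the SD of log2(CPM + 0.5) around the 4 group means, with 8 degrees of freedom. Its median was 0.199 over the members, 0.168 over the next 100 identifiers by the same rule and 0.206 over all identifiers. By level, the median over all identifiers was 0.316 between 1 and 3 CPM, 0.148 between 30 and 100 CPM, 0.149 between 100 and 300 CPM and 0.179 above 300 CPM. The most abundant transcripts were thus no tighter between replicates than those of medium level, although their counting error was far smaller. The members' own values ran from 0.0556 to 0.601, with 6 below 0.1 and 8 above 0.3.

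The steadiest member was Sobic.010G173100 on chromosome 10. It stood at 758, 767 and 677 CPM in watered NIL-WT-72, 724, 710 and 711 CPM in droughted NIL-WT-72, 737, 750 and 772 CPM in watered NIL-bri1-72 and 706, 730 and 698 CPM in droughted NIL-bri1-72. Its coefficient of variation over all 12 libraries was 4.04%, and the groups overlapped except that each watered NIL-bri1-72 library lay above each droughted library.

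Sobic.004G006300 on chromosome 4 was nearly as steady, between 1079 and 1260 CPM in all libraries, with a coefficient of variation of 4.52%. Sobic.010G232100, also on chromosome 10, lay between 1258 and 1496 CPM, with a coefficient of variation of 5.71%. These 3 members had replicate SDs of 0.0556, 0.0661 and 0.0620 log2 units.

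The least steady member was Sobic.004G011566 on chromosome 4, with a replicate SD of 0.601. It stood at 451, 688 and 447 CPM in watered and 756, 1110 and 291 CPM in droughted NIL-WT-72. The NIL-bri1-72 libraries gave 865, 971 and 666 CPM in water and 1138, 596 and 658 CPM in drought. Droughted NIL-WT-72 alone covered nearly the whole range, from its replicate 3 at the bottom to its replicate 2 near the top.

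Sobic.006G078500 on chromosome 6 followed with an SD of 0.528. It stood at 1727, 1477 and 2029 CPM in watered and 1679, 1394 and 2359 CPM in droughted NIL-WT-72. The other line gave 1250, 2202 and 730 CPM in watered and 934, 1516 and 1920 CPM in droughted NIL-bri1-72. The lowest and the second highest of its 12 values came from the same group, watered NIL-bri1-72. Sobic.005G096101 on chromosome 5 had an SD of 0.433, with 388 CPM in NIL-bri1-72 drought replicate 2 and between 596 and 996 CPM in the other libraries.

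**Figure D3:**
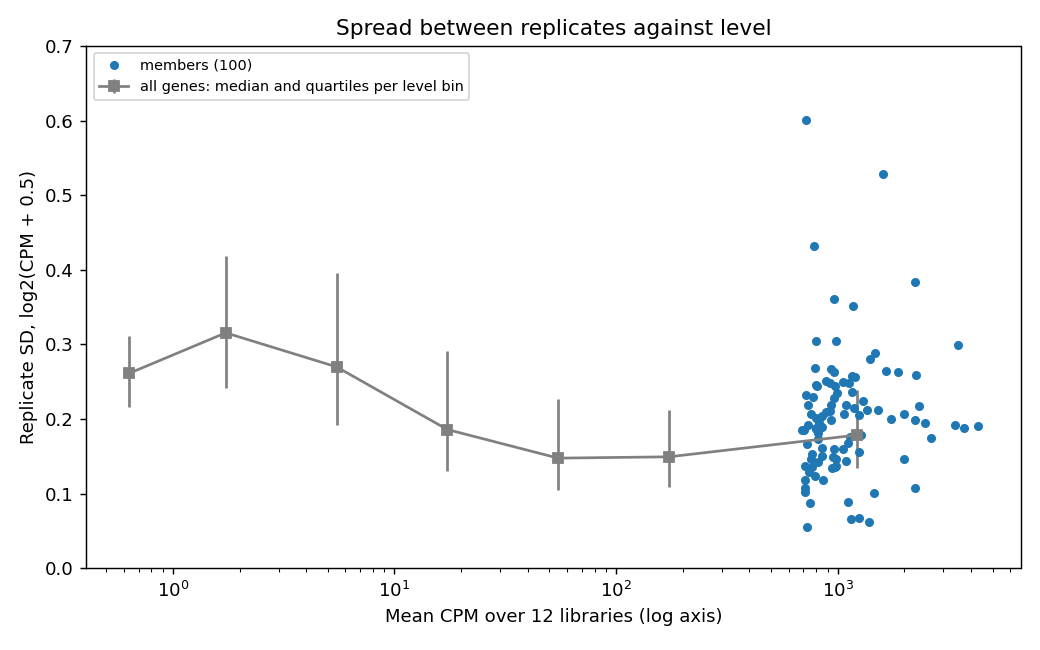
Replicate SD in log2(CPM + 0.5) against mean CPM on a log axis, with dots for the members and grey squares with quartile bars for all identifiers in level bins. The grey median is lowest between 30 and 300 CPM, at 0.148 and 0.149, and the members scatter from 0.0556 to 0.601.

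Many members deviated from their group means together. Among the 4950 pairs of members, the correlation of replicate deviations over the 12 libraries exceeded 0.9 for 162 pairs and lay below -0.9 for 20, while 82 pairs of the next 100 identifiers exceeded 0.9. These libraries share their scaling, and all pairs share the same few degrees of freedom, so the values are a description. With libraries scaled by TMM, a method that sets aside the most extreme genes, the numbers were 260 and 133. Linking members by correlations above 0.9 gave 1 group of 44 members, with 2 groups of 5 next in size. The grouping was made from these deviations and was not tested.

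The 44 members held 7 of the 20 highest identifiers, Sobic.008G178800 among them, and 42.2% of all reads of the members. Their mean deviation was -0.23 log2 units in NIL-bri1-72 drought replicate 1 and 0.21 in drought replicate 2 of the same group. In drought replicate 1, 2 of the 44 lay above their group mean, and in drought replicate 2, 40 did. In watered NIL-WT-72 the mean deviation was 0.16 in replicate 1, where all 44 lay above, and -0.19 in replicate 3, where 1 did. In droughted NIL-WT-72 replicate 1 stood at 0.13 and replicates 2 and 3 at -0.07 and -0.06. In watered NIL-bri1-72 replicates 1, 2 and 3 stood at -0.115, 0.01 and 0.11.

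The 5 members of the second group, Sobic.006G247100, Sobic.003G040900, Sobic.002G217200, Sobic.008G092600 and Sobic.010G105200, ran partly the other way. They deviated on average by -0.18 in NIL-WT-72 water replicate 1 and 0.19 in water replicate 3, by 0.24 in NIL-bri1-72 drought replicate 1 and by -0.28 in drought replicate 3. Sobic.006G247100 itself stood at 2576, 2143 and 1736 CPM in droughted NIL-bri1-72 and at 2061, 2266 and 2840.5 CPM in watered NIL-WT-72. Replicates 1 and 3 thus lay in opposite orders in these groups.

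These deviations are taken from the group means and so describe replicates alone. Between the lines the 44 had a median averaged log2 fold change of -0.03, from -0.17 to 0.18. The other 56 members deviated on average by between -0.06 and 0.08 in any library. In NIL-bri1-72 drought replicates 1 and 2 the TMM factors were 1.03 and 0.953, opposite in order to the mean deviations of the 44. With TMM scaling these deviations were -0.28 and 0.27, and all 44 were again linked in 1 group, then of 53. Totals of these libraries were 25515363 and 30841591 counts. In NIL-WT-72, replicate 1 had the lowest factor of its group in water and in drought, 0.976 and 0.979. Its mean deviations were the highest there, 0.16 and 0.13. The opposite order held within groups for every pair of replicates, except replicates 2 and 3 of watered NIL-bri1-72 and of both NIL-WT-72 groups. In watered NIL-bri1-72 these had factors of 0.983 and 1.015 at mean deviations of 0.01 and 0.11. In watered NIL-WT-72 they had factors of 1.015 and 1.005 at mean deviations of 0.03 and -0.19. In droughted NIL-WT-72 the factors were 1.013 and 1.014 at mean deviations of -0.07 and -0.06. The part of factors and totals in the pattern was not tested.

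For principal components each member was centred on its mean over all 12 libraries. Differences between lines and regimes thus enter them beside replicate deviations. The first principal component of the members held 37.4% of their variance and all 44 members of the largest group had a positive loading on it. Its scores ran from -2.03 in NIL-bri1-72 drought replicate 1 to 2.22 in NIL-bri1-72 drought replicate 2, so replicates of 1 group lay at both ends. The second component held 22.9%. It set apart replicate 3 of NIL-WT-72 in water and in drought, at 2.19 and 1.89, with the other libraries between -0.895 and 0.692. Members were not scaled to equal variance, so less steady ones weigh more. The largest loading in size on the second component was -0.483, for Sobic.004G011566, the least steady member.

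**Figure D4:**
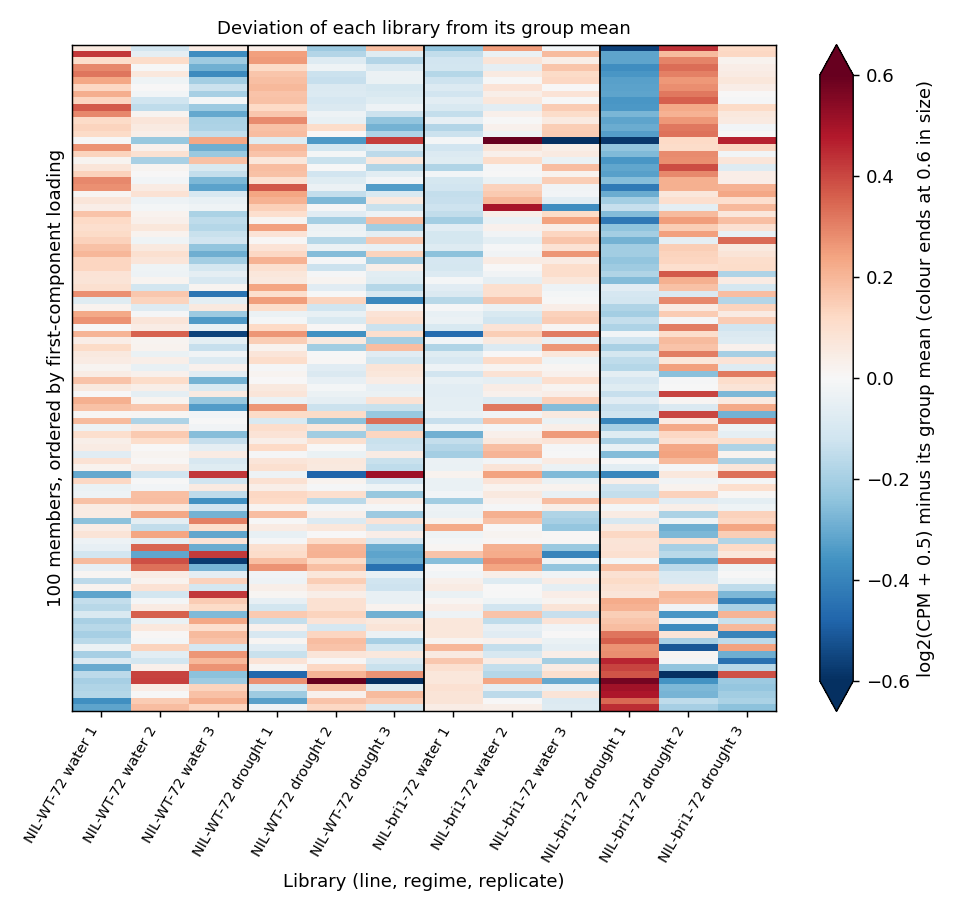
Deviation of log2(CPM + 0.5) from the group mean for the 100 members (rows, ordered by first-component loading) in the 12 libraries (columns, in 4 groups of 3), red above and blue below the group mean, with full colour from 0.6 in size. Opposite colours stand side by side for replicates 1 and 2 of droughted NIL-bri1-72, where 2 and 40 of the 44 linked members lie above the mean.

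Members were spread over all 10 chromosomes as the identifiers number them. Chromosome 1 held 19, chromosome 4 held 15 and chromosome 10 held 14. As a share of listed identifiers this was 0.508%, 0.612% and 0.807%, against 0.480% over the whole table. Chromosomes 8 and 5 held fewer members, 8 and 6, but had shares of 0.719% and 0.531%. The lowest shares were 0.294% on chromosome 9 and 0.296% on chromosome 7, and none of the 16 unplaced identifiers was a member.

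In 3 cases a member stood on the next line of the table after another member. Sobic.001G107100 and Sobic.001G107200 moved nearly in step, with a ratio between 2.17 and 2.45 in all 12 libraries and a correlation of replicate deviations of 0.987. Sobic.005G112800 and Sobic.005G113300 had a ratio between 2.70 and 3.09 and a correlation of 0.956. Both of these pairs lie in the linked group of 44 members. The first pair had the highest correlation of all pairs of members. Sobic.005G112800 correlated more strongly, at 0.976, with Sobic.009G224400 on chromosome 9. Sobic.004G011566 and Sobic.004G011700, with nearly equal means of 719.8 and 720.5 CPM, had a ratio between 0.354 and 2.08 and a correlation of -0.494. Genes that are not listed may lie between such lines, so these members need not be neighbours in the genome. Neighbouring genes can be near-identical copies between which the counting splits reads. Neither point could be examined without sequences and positions, so levels of these 6 are uncertain.

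The difference between the lines was not used to choose the members and was tested on the whole table. In water, 0 members passed (edgeR's quasi-likelihood test, p below 0.05 after Benjamini-Hochberg adjustment), and 0% of all identifiers did. An unadjusted p below 0.05 was reached by 2 members, both higher in NIL-bri1-72, beside 5.24% of all identifiers. In drought 0 members passed, again beside 0%, and 0 had such an unadjusted p, beside 2.47%. Averaged over both regimes 0 passed, beside 0%, and 2 had an unadjusted p below 0.05, beside 6.49%.

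DESeq2 also called 0 members in water, in drought and averaged, where it called 0.0192%, 0.0048% and 0.154% of all identifiers, and its unadjusted p was below 0.05 for 4, 0 and 3 members, beside 5.96%, 2.93% and 7.58%. Limma voom called 0 members in each contrast, beside 0% of all identifiers, with 3, 0 and 2 below 0.05 unadjusted, beside 4.47%, 2.5% and 6.18%. Without single libraries the edgeR count of members with an unadjusted p below 0.05 in water went from 0, without NIL-WT-72 water replicate 1 (beside 5.54% of all identifiers) or NIL-bri1-72 water replicate 1 (2.69%), to 7, without NIL-bri1-72 water replicate 3 (5.37%). In drought it reached 3 without NIL-bri1-72 drought replicate 2, beside 2.89%. Averaged over regimes, 0 were left without NIL-WT-72 water replicate 1 (beside 6.8%), NIL-WT-72 drought replicate 3 (3.65%) or NIL-bri1-72 water replicate 1 (4.18%). Without NIL-bri1-72 drought replicate 2 there were 6, beside 8.57%.

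The members' log2 fold changes, NIL-bri1-72 minus NIL-WT-72, had a median of 0.00 in water and -0.01 in drought, against -0.01 and 0.00 over all identifiers. Their median size was 0.079 in water and 0.068 in drought, against 0.126 and 0.106. All identifiers had a median level of 18.0 CPM and included those set aside by the drought bound. The sizes are thus not compared at like level or selection. Without NIL-bri1-72 drought replicate 1 the median in drought was 0.08, and without NIL-bri1-72 drought replicate 2 it was -0.11. They lay above 0 for 52 members in water and 45 in drought. Averaged over regimes they ran from -0.31 to 0.40, and 92 of 100 were under 0.25 in size.

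What these libraries could resolve is given by the 95% interval of each member. Averaged over regimes its half-width had a median of 0.268 log2 units, from 0.150 to 0.628, and for 87 members the whole interval lay within 0.5 of zero. For 99 it lay within 1. In water alone 63 intervals and in drought alone 66 lay within 0.5. For those members a difference of 0.5 or more lies outside the interval. Which smaller differences remain within it varies by member. For Sobic.010G173100 the averaged interval ran from -0.13 to 0.17.

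**Figure D5:**
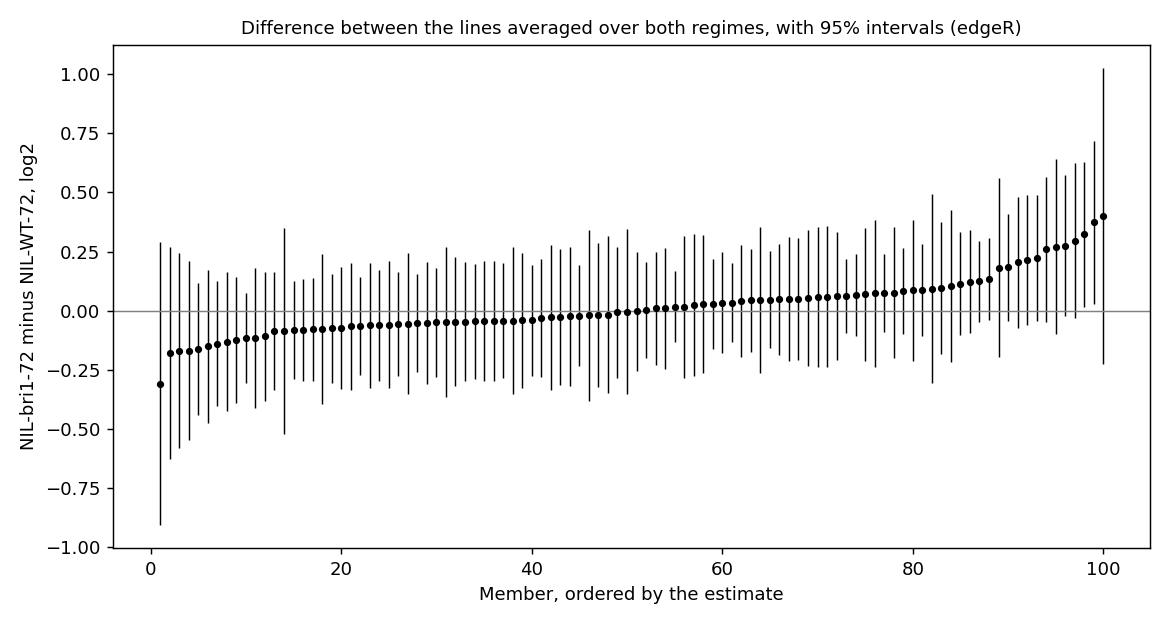
Log2 fold change between the lines averaged over both regimes for each of the 100 members, ordered by estimate, with 95% intervals from edgeR. Estimates run from -0.31 to 0.40, and 0 members pass after adjustment.

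The highest averaged estimates belonged to Sobic.004G011566, Sobic.004G288700 and Sobic.001G505100. For Sobic.004G011566, whose values stand above, NIL-bri1-72 was higher by 0.40 log2 units (SE 0.29; adjusted p = 0.787, edgeR). Sobic.004G288700 on chromosome 4 stood at 1125, 1463 and 958 CPM in watered and 1627, 1529 and 988 CPM in droughted NIL-WT-72. In NIL-bri1-72 it stood at 1705, 2005 and 1445 CPM in water and 1803, 1425 and 1560 CPM in drought. Replicate 3 of NIL-WT-72 was the lowest library of each regime.

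In water the estimate for Sobic.004G288700 was 0.54 (SE 0.22; adjusted p = 0.888, edgeR), with the lowest unadjusted p of all members, and averaged it was 0.37 (SE 0.16; adjusted p = 0.739). Sobic.001G505100 on chromosome 1 gave 754, 1031 and 669 CPM in watered and 919, 905 and 676 CPM in droughted NIL-WT-72, and 1087, 1252 and 1010 CPM in watered and 1046, 739 and 1086 CPM in droughted NIL-bri1-72. The averaged estimate was 0.32 (SE 0.14; adjusted p = 0.739, edgeR). For all 3 members the libraries of the lines overlapped in water and in drought.

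The lowest averaged estimates were -0.31 for Sobic.006G078500 (SE 0.27, edgeR adjusted p = 0.828), -0.18 for Sobic.004G157300 (SE 0.20, edgeR adjusted p = 0.869) and -0.17 for Sobic.007G216300 (SE 0.19, edgeR adjusted p = 0.864). Sobic.004G157300 on chromosome 4 stood at 2031, 2315 and 3378 CPM in watered and 2051, 1501 and 2982 CPM in droughted NIL-WT-72. The other line gave 2103, 2449 and 1726 CPM in watered and 1545, 2122 and 2548 CPM in droughted plants. Here replicate 3 of NIL-WT-72 was the highest library of each regime. Sobic.007G216300 on chromosome 7 gave 1172, 1302 and 693 CPM in watered and 1147, 742 and 1024 CPM in droughted NIL-WT-72, against 739, 1126 and 1263 CPM and 765, 833 and 730 CPM for NIL-bri1-72.

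Leaving out replicate 3 of NIL-WT-72 in both regimes turned the estimate of Sobic.004G157300 to 0.08 and that of Sobic.006G078500 to -0.14. Those of Sobic.004G011566, Sobic.004G288700 and Sobic.001G505100 became 0.15, 0.20 and 0.19. These 5 estimates all moved toward or past 0, while that of Sobic.007G216300 moved away from it, to -0.27. This alternative was chosen after seeing the data, and the direction of the 5 moves was fixed by the values left out. For these 5 members, replicate 3 was the lowest NIL-WT-72 library in both regimes where the estimate was above 0. It was the highest where the estimate was below 0. For Sobic.007G216300 it was the lowest in water and lay between the others in drought. Single libraries of either line moved the estimates as well. For Sobic.006G078500 it was -0.57 without NIL-bri1-72 water replicate 2 and -0.15 without water replicate 3 of that line. In drought the lowest unadjusted p was that of Sobic.008G136000 on chromosome 8, at 2216, 1825 and 2107 CPM in NIL-WT-72 and 1876, 1634 and 1646 CPM in NIL-bri1-72, an estimate of -0.25 (SE 0.18; adjusted p = 1.00, edgeR).

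Without regard to tests, all 3 watered NIL-bri1-72 libraries lay above all 3 watered NIL-WT-72 libraries for 9 members, beside 6.36% of all identifiers, and below them for 2, beside 3.66%. In drought this was so for 0 members upward, beside 3.38%, and for 1 downward, beside 3.09%. The lines were apart in the same direction in both regimes for 0 members, beside 0.711% of all identifiers. Among the 9 was Sobic.010G232100, at 1405, 1436 and 1343 CPM in watered NIL-WT-72 and 1445, 1496 and 1438 CPM in watered NIL-bri1-72, an estimated difference of 0.06 (SE 0.10; adjusted p = 0.958, edgeR). A separation without overlap in a steady member can thus be a small difference.

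The share of all counts that the members held was compared between the lines as 1 value per library. In water it was 12.1% ± 0.422 in NIL-bri1-72 and 11.8% ± 0.369 in NIL-WT-72 (SD in percentage points, n = 3), a difference of 0.38 points (exact permutation p = 0.4, two-sided, where 3 against 3 allows no p below 0.1). In drought it was 12.2% ± 0.641 and 12.4% ± 0.629 (SD, n = 3), a difference of -0.177 points (exact permutation p = 0.8). Averaged over regimes the difference was 0.102 points (exact permutation p = 0.75, from all 400 ways to exchange lines inside each regime). Without NIL-WT-72 water replicate 3, NIL-WT-72 drought replicate 3, NIL-bri1-72 water replicate 2 or NIL-bri1-72 drought replicate 2 it lay below 0, down to -0.0299 points.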

How the data were processed

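Stranded messenger RNA libraries were sequenced as paired reads of 100 bases, per the labels' protocols. The authors deposited 1 table of raw counts per gene identifier for 12 libraries, with 20818 identifiers. Per the submitters' processing notes the tools were FastQC (0.11.2), Trimmomatic (0.38), HISAT2 (2.1.0) and, for counting, featureCounts (1.6.2). For parameters, genome build, annotation and strand setting, each was not given in the sources used here. Therefore overlapping and antisense genes may share reads. The smallest deposited count in a library was 8 to 13, so genes that are silent in a library are not analysed here. Chromosomes were read from the identifiers, by a numbering convention that was not checked against a genome. The 0 matches to RefSeq left gene lists by product name unused.

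Members were found from CPM by column sums with a pseudocount of 0.5 CPM, a drought bound of 0.5 and a limit of 100. The members, the rule and the tests were chosen with earlier results of these data known. The test on the deposited counts was that of edgeR 4.0.16, under R 4.3.3 (filterByExpr, which kept 20818 genes, TMM, quasi-likelihood fit of 4 group means, Benjamini-Hochberg adjustment over all genes). Its common biological coefficient of variation came to 0.209, with 3.12 prior degrees of freedom. SEs were taken as the size of a log2 fold change over the root of its F. DESeq2 1.42.0, limma 3.58.1 voom, other scalings and filters, a replicate block and left-out libraries were alternatives, and each test was tried on simulated counts. Single values were compared by exact permutation. No pair of replicates was identical, and chi-square per degree of freedom between replicates was 16.4 to 67.2. Replicates were named as biological by the series design.

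Members printed by name were the 20 with the most reads, of which those with distinct patterns are given in full, the 3 highest and lowest averaged line differences, the lowest p per regime, the 3 smallest and largest replicate SDs, the 2 on each side of each limit, and the 5 abundant identifiers set aside. The members on adjacent lines of the table were added after their values were seen.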

Additional observations from a re-analysis of the deposited data

How the results depend on the processing

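The count of members called between the lines was 0 in water, in drought and averaged under all 22, 22 and 21 alternatives run, which covered RLE factors, library totals alone, DESeq2, limma voom, no filter, a filter at 10 CPM, the compared libraries alone, a replicate block and left-out libraries. With the replicate block 0 members were called in each contrast. Within a regime, same-numbered replicates of the lines correlated between -0.339 and 0.102 in their deviations. Differently numbered ones correlated between -0.245 and 0.340, so pairing was not assumed. Replicate numbers were not compared across regimes. The rule kept between 94 and 100 of the members when 1 library was left out, 96 and 97 with a drought bound of 0.4 or 0.6, 99 when ranked by median CPM, and 100 with TMM scaling or a pseudocount of 2 CPM. A ranking per kilobase was not run for want of lengths. The median replicate SD was between 0.170 and 0.216 under all alternatives run.

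The difference in share between the lines depended on single libraries. With 1 library left out, the lowest and highest values were 0.162 and 0.583 points in water, -0.440 and 0.180 points in drought, and -0.0299 and 0.280 points averaged. Without both NIL-WT-72 replicates 3, an alternative chosen after seeing the data, it was -0.123 averaged, and the averaged log2 fold change of Sobic.004G157300 was 0.0765. The cause was not tested. Under the other alternatives run, the 6 averaged estimates named in the report kept their sign, but their size depended on single libraries. With 1 library left out they lay between -0.57 and -0.15 for Sobic.006G078500, -0.29 and -0.04 for Sobic.004G157300, -0.29 and -0.07 for Sobic.007G216300, 0.21 and 0.62 for Sobic.004G011566, 0.27 and 0.46 for Sobic.004G288700, and 0.25 and 0.42 for Sobic.001G505100.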
